A study of Mus musculus with 10 samples.

Results

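The genes Mapk11, Mapk14, Mapkapk2, Map4k2 and Map4k4, which encode 5 kinases of mitogen-activated protein (MAP) kinase signalling, were followed in hippocampal microglia, the resident macrophages of the brain. They were chosen by gene name among the 545 endogenous genes of an nCounter mouse immune panel, and all 5 were on it. Pups were male, of strain Balb/c and 14 days old, and microglia were taken from the hippocampus by Percoll gradient and cell sorting. The 5 control pups carry the numbers 1, 18, 40, 52 and 69, and the 5 pups of the brief daily separation (BDS) group, in which a pup is taken from its mother for 15 min each day, carry 11, 17, 24, 38 and 59. The separation schedule is given as postnatal days 1 to 21, so these pups were still within it, and all pups came from different litters. No genotype or agent other than the separation is named for either group. Each pup was read in 1 lane, from 2 ng of RNA amplified by 5 rounds of PCR.

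MAP kinases pass signals along a chain of kinases, each of which phosphorylates the next. The MAP4 kinases stand near the top of the chain, below cell surface receptors, and feed stress and cytokine signals towards the JNK and p38 branches. The p38 kinases sit at the bottom of their branch and activate MK2, the product of Mapkapk2, which controls how long many inflammatory messenger RNAs last and how well they are translated. In microglia and other macrophages the p38 branch is best known for its part in the production of inflammatory cytokines. These are phosphorylation cascades, and the panel measured messenger RNA only.

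Lanes differed in depth, with endogenous counts from 76237 in control 52 to 968930 in BDS 17. The housekeeping signal, the geometric mean of 6 housekeeping genes used to scale each lane, was higher in BDS lanes by 1.23 on the log2 scale (exact two-sided permutation p = 0.0873, n = 5 each). Control 52 and control 69 had the lowest signals of the 10 lanes, and values that rest on them are given with and without them. All 11 microglia markers on the panel were detected. Of the other cell types looked for, detection covered 1 of 14 T cell, 2 of 8 B cell, 2 of 4 NK cell, 3 of 8 neutrophil and monocyte and 3 of 5 endothelial markers. Normalized counts were summed over all markers of a list on the panel. Most T cell markers were not detected, so that sum is largely background divided by the housekeeping signal. The sums of the T cell list ran from 190 to 500 in control lanes and from 142 to 175 in BDS lanes. In the same order, those of the B cell list ran from 977 to 1529 and from 1388 to 1930. The NK cell sums were 92.3 to 120 and 85.9 to 125, and the neutrophil and monocyte sums 3833 to 4978 and 2979 to 4535. The endothelial sums were 745 to 1694 and 991 to 1090. The part of these cell types in the results below was not tested. In bulk RNA of this kind, fewer cells of a type and less RNA per cell cannot be told apart.

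Mapkapk2 was the member with the clearest difference between the groups, and it was higher in BDS. All 5 BDS lanes exceeded the mean of the control lanes, which also held for Map4k4. The share of all genes for which this held was not counted. Mapkapk2 did not pass the adjusted threshold. Mapk14 had its highest value by far in a single control pup, and without the 2 control lanes of lowest signal the sign of its difference turned. Map4k2 and Map4k4 differed in mean by less than the SD of the control pups. Mapk11 lay at background in most lanes. A gene was tested where 4 or more of the 10 lanes exceeded a limit set by the negative probes (their mean in that lane plus 2 SD), which 283 genes did, 4 of them members. In edgeR's quasi-likelihood test 0 of the 4 passed an adjusted p of 0.05, against 0% of all genes tested. At an unadjusted p under 0.05, 1 of the 4 passed, against 28.3% of all genes tested. The share for genes higher in BDS was 19.4% and that for genes lower was 8.83%. The 55 to 25 split of higher and lower genes moved to 36 and 39 with TMM scaling and to 25 and 49 when Sdha was left out of the housekeeping genes. At an adjusted p of 0.05, DESeq2 called 25 genes on the same scaling and limma 0, and no member was among them. In 0 of the 4 tested members were the values of the groups free of overlap, where 4.59% of all genes tested had no overlap.

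**Figure D1:**
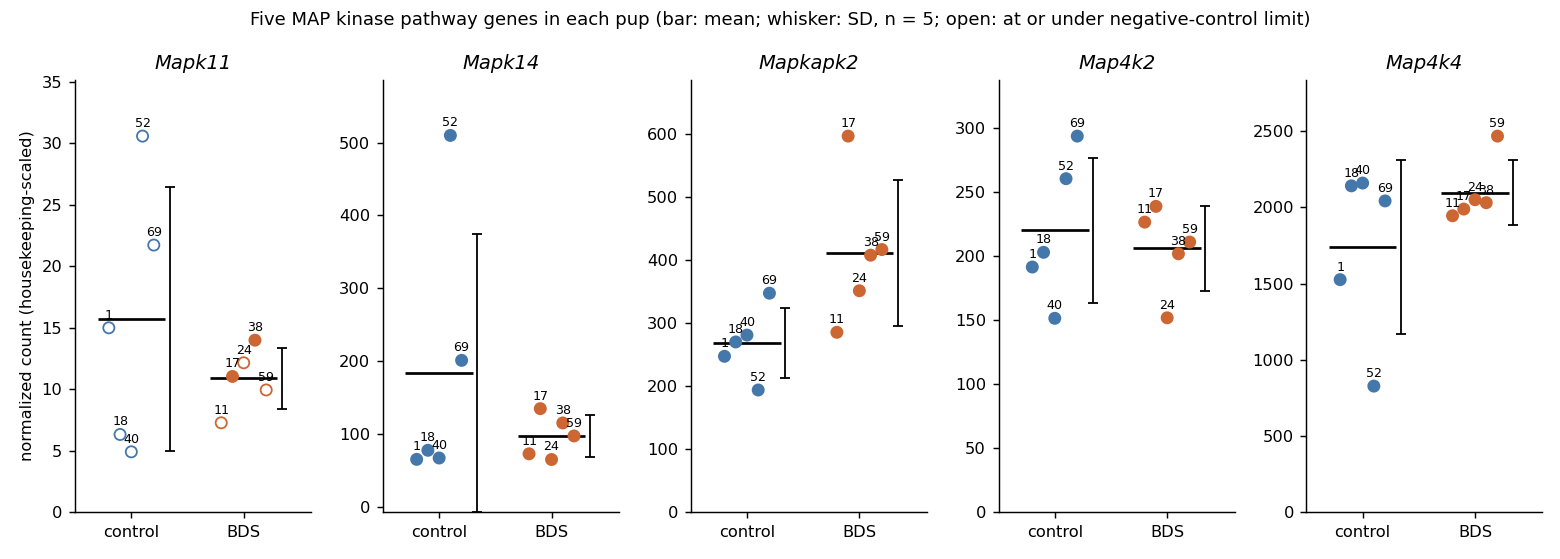
Normalized counts (vertical axis, from raw counts divided by the housekeeping signal of the lane) of the 5 genes in each pup, in control and BDS groups, with the pup's number at each point; bars are means, whiskers SD (n = 5), and open points lie at or under the negative-control limit of their lane. Control 52 stands at 510 normalized counts of Mapk14, above every other lane, and at 826 of Map4k4, below every other lane.

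The upstream kinase gene Map4k2 encodes germinal center kinase, which acts in signalling from the TNF receptor family towards JNK. In control lanes it stood at 191 normalized counts in pup 1, 203 in pup 18, 151 in pup 40, 260 in pup 52 and 293 in pup 69. In BDS lanes it stood at 226 in pup 11, 238 in pup 17, 151 in pup 24, 201 in pup 38 and 211 in pup 59. The groups overlapped throughout their range, and both ends of it were in control pups 40 and 69. The means were 220 ± 56.7 in control and 206 ± 33.4 in BDS (SD, n = 5 each). The log2 fold change, positive where BDS is higher, was -0.08 ± 0.22 (SE; edgeR adjusted p = 0.843). The sign was not stable: it was 0.18 without control 52 and 69 and 0.23 with lane depth, the log2 housekeeping signal, as a covariate.

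Map4k4 encodes a kinase of the same family that acts towards JNK and in the control of cell shape and migration. Control lanes held 1525 normalized counts in pup 1, 2142 in pup 18, 2160 in pup 40, 826 in pup 52 and 2042 in pup 69. BDS lanes held 1945 in pup 11, 1989 in pup 17, 2050 in pup 24, 2031 in pup 38 and 2468 in pup 59. Apart from control 1, control 52 and BDS 59, all lanes fell between 1945 and 2160. The mean was 1739 ± 572 in control and 2097 ± 212 in BDS (SD, n = 5 each), and the log2 fold change was 0.27 ± 0.23 (SE; edgeR adjusted p = 0.475). The control median of 2042 and the BDS median of 2031 were close to each other. Without control 52 the log2 fold change was 0.09, and with lane depth as a covariate it was -0.01. The coefficient of variation in BDS lanes was 10.1%, against a median of 19.9% over the 283 genes, and 30 of these genes varied less.

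Mapk14 encodes p38 alpha, the main p38 kinase of macrophages. Its control lanes stood at 65.0 normalized counts in pup 1, 77.4 in pup 18, 66.9 in pup 40, 510 in pup 52 and 201 in pup 69. Its BDS lanes stood at 72.6 in pup 11, 135 in pup 17, 64.8 in pup 24, 115 in pup 38 and 97.2 in pup 59. Control 52 and control 69 exceeded all 5 BDS lanes, while the other 3 control lanes lay at the lower end of the BDS range. The group means were 184 ± 191 in control and 96.8 ± 29.0 in BDS (SD, n = 5 each), and the log2 fold change was -0.82 ± 0.51 (SE; edgeR adjusted p = 0.283). The medians ran the other way, with 77.4 in control and 97.2 in BDS.

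The size and sign of the Mapk14 difference rested on those 2 control lanes. Without control 52 the log2 fold change was -0.01. Without control 52 and control 69 it was 0.48 (edgeR adjusted p = 0.241), with a control mean of 69.8 ± 6.73 (SD, n = 3). With lane depth as a covariate it was 0.56 (edgeR adjusted p = 0.511). The coefficient of variation over control lanes was 104%, a value exceeded by 5 of the 283 genes, where the median gene had 31.2%.

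The raw counts of Mapk14 varied less between the control lanes than their scaled values. Control 52 held 100 raw counts of Mapk14 and control 69 held 74, against 52 in control 1, 86 in control 18 and 123 in control 40. In BDS lanes the raw counts were 60 in pup 11, 293 in pup 17, 112 in pup 24, 222 in pup 38 and 137 in pup 59. The lane with the lowest housekeeping signal thus held more Mapk14 barcodes than control 1, control 18 and BDS 11. All 10 raw values were above the negative-control limit of their lane, which ran from 13.9 to 26.3 counts. Control 52 was an extreme lane for many genes: of the 283, it was the highest lane in 83 (29.3%) and the lowest in 82 (29.0%). It was not alone in this, as BDS 17 was the highest lane in 77 (27.2%) and control 1 the lowest in 67 (23.7%). The Mapk14 value of control 52 was 5.84 times the median of the 10 lanes, and 5 of the 283 genes had a larger ratio there.

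**Figure D2:**
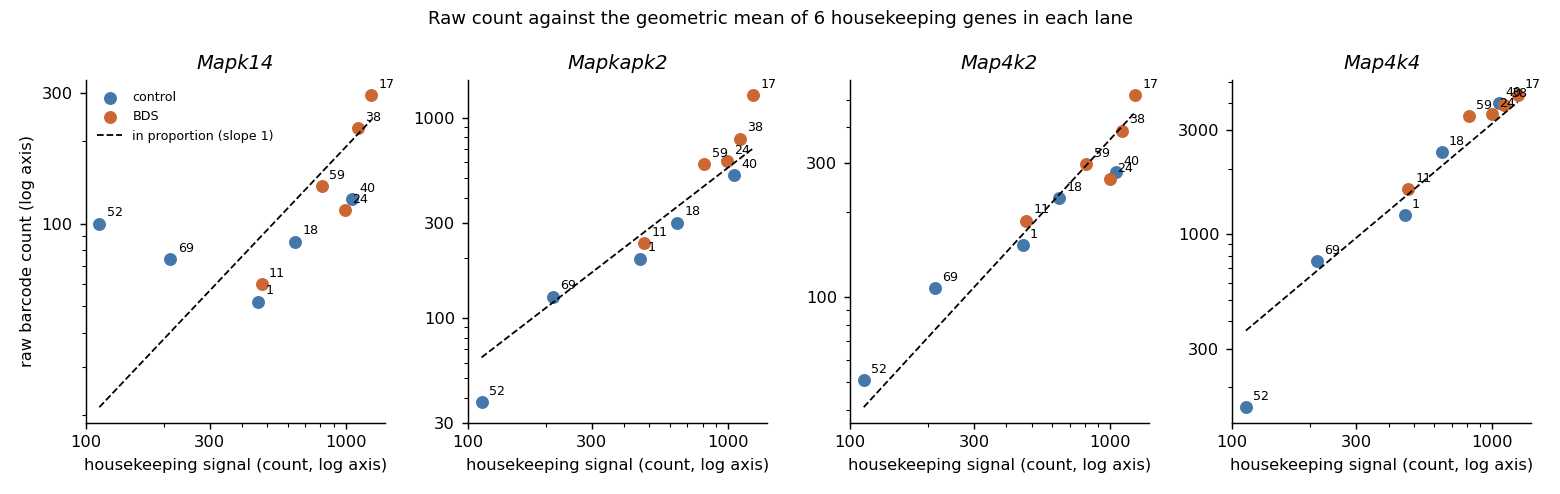
Raw barcode counts of the 4 tested genes (vertical log axis) against the housekeeping signal of the lane (horizontal log axis), with the pup's number at each point; the dashed line marks counts in proportion to the signal. In Mapk14, control 52 and control 69 lie above the line at 100 and 74 raw counts, while in Map4k4 control 52 lies below it at 162.

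The members differed in how raw counts followed the housekeeping signal over the 10 lanes. A slope of 1 on log2 scales stands for counts in proportion, and the median gene had 1.02. Mapk14 had a slope of 0.39, with 14 of the 283 genes lower, and Map4k2 one of 0.82. Mapkapk2 had 1.26 and Map4k4 1.29. Without control 52 and 69 the slopes were 1.39 for Mapk14, 0.90 for Map4k2, 1.55 for Mapkapk2 and 1.17 for Map4k4. These slopes describe the lanes and were not tested.

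Mapk11 encodes p38 beta, the closest relative of p38 alpha. Its raw counts ran from 6 to 27, and 0 control lanes and 2 BDS lanes, pups 17 and 38, exceeded the negative-control limit. It was therefore not tested, and its normalized counts are background values scaled by lane. They ran from 4.89 in control 40 to 30.6 in control 52, and from 7.26 to 14.0 in BDS lanes. With no filter on low counts the fitted log2 fold change was -0.18 ± 0.47 (SE; edgeR adjusted p = 0.830). Mapk11 did not exceed the limit in 8 of 10 lanes. The 2 lanes where it did, BDS 17 and BDS 38, held the highest endogenous counts of the 10, 968930 and 897021.

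Mapkapk2 encodes MK2, the kinase that p38 alpha activates. Control lanes held 247 normalized counts in pup 1, 270 in pup 18, 281 in pup 40, 194 in pup 52 and 348 in pup 69. BDS lanes held 285 in pup 11, 597 in pup 17, 352 in pup 24, 408 in pup 38 and 417 in pup 59. Control 69 exceeded BDS 11, and the other 4 BDS lanes were above every control lane. The mean was 268 ± 55.8 in control and 412 ± 116 in BDS (SD, n = 5 each). The log2 fold change was 0.61 ± 0.22 (SE; edgeR adjusted p = 0.126). Its unadjusted edgeR p was 0.0154, which ranked 34th of 283. It was positive in all 28 alternative settings tried, from 0.42 on the authors' scores to 1.90 when only the positive controls set the scale, where the median of all genes was 1.35. Without BDS 17, the highest lane, it was 0.44, and without control 52 and 69 it was 0.63. With lane depth as a covariate it was 0.43 (edgeR adjusted p = 0.398).

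**Figure D3:**
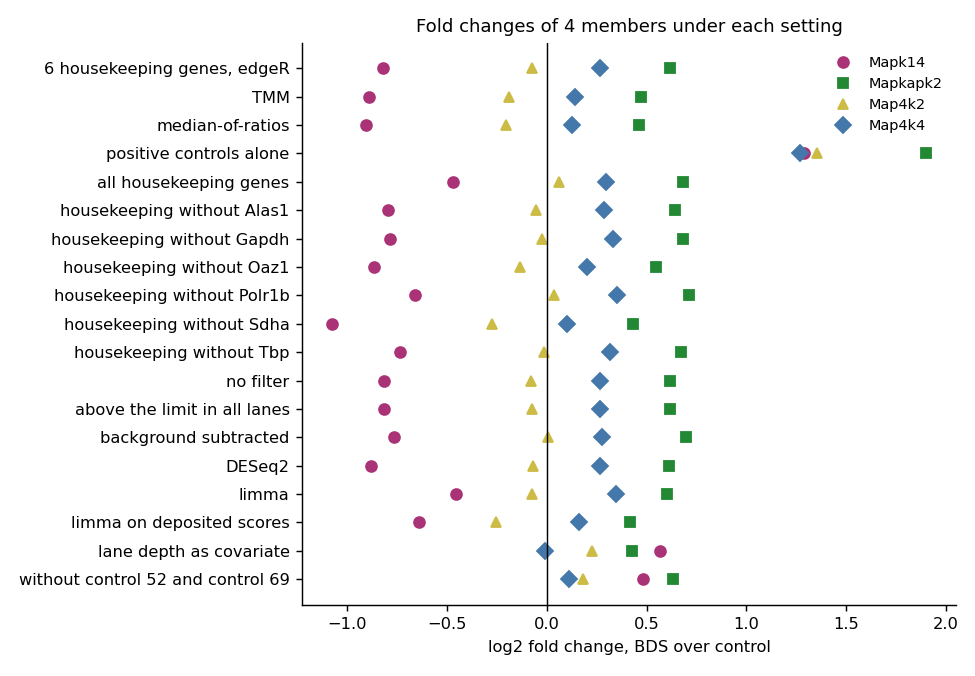
Log2 fold change of BDS over control (horizontal axis) of the 4 tested genes under the 6-housekeeping scaling with edgeR and under each alternative, without the settings that leave out 1 pup. Mapkapk2 lies right of 0 in each, while Mapk14 moves from -0.82 to 0.56 with lane depth as a covariate and to 0.48 without control 52 and 69.

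The authors' deposited table gives fold changes of group means of 1.35 for Mapkapk2 (unadjusted p = 0.0917), 0.44 for Mapk14 (0.2904), 0.81 for Map4k2 (0.2479) and 1.07 for Map4k4 (0.6219). In the authors' deposited table, Mapk11 was above background in 20% of samples and the other 4 genes in 100%.

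Ratios of members within a lane need no scaling factor, so 3 were compared between groups. Mapkapk2 to Mapk14 sets MK2 beside the kinase that activates it. The log2 ratio of raw counts was 1.93 in control 1, 1.80 in control 18, 2.07 in control 40, -1.40 in control 52 and 0.79 in control 69. It lay between 1.83 and 2.44 in the 5 BDS lanes. Thus 3 control lanes stood within or next to the BDS range and the other 2 below it. The difference was 1.06 (exact two-sided permutation p = 0.0635, adjusted over 3 ratios 0.190, n = 5 each), and 0.16 without control 52 and 69.

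The ratio of the MAP4 kinase genes, Map4k2 to Map4k4, was highest in control 52, at -1.67, and lowest in control 40, at -3.84. BDS lanes lay between -3.76 and -3.06. The difference was -0.42 (exact two-sided permutation p = 0.349, adjusted 0.524, n = 5 each). Without control 52 and 69 it was 0.05. The ratio of the p38 genes, Mapk11 to Mapk14, differed by 0.22 (exact two-sided permutation p = 0.571, adjusted 0.571, n = 5 each), with Mapk11 at background. Without control 52 and 69 this difference was 0.034, without control 1 it was 0.53, without BDS 24 0.040, and with the negative-control mean subtracted 1.30. Subtracted counts were set to no less than 1. Mapk11 took this floor in control 18, control 40, control 52 and BDS 11, so the 1.30 rests in part on it. The smallest p that this design can give is 0.00794.

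**Figure D4:**
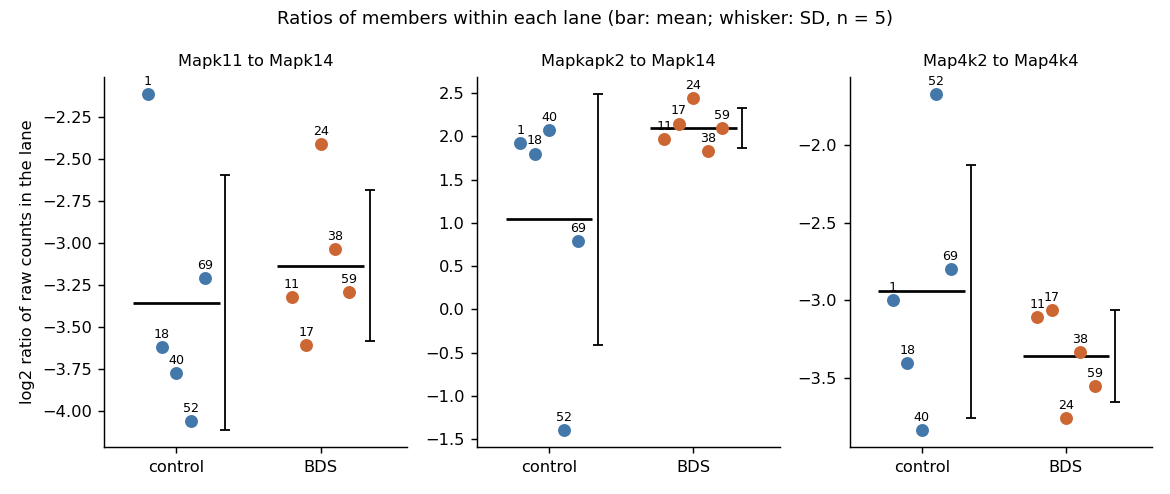
Log2 ratios of raw counts within each lane (vertical axis; each panel has its own range) for 3 pairs of genes, by group, with the pup's number at each point; bars are means and whiskers SD (n = 5). For Mapkapk2 to Mapk14, control 52 lies at -1.40 and control 69 at 0.79, while the other 8 lanes lie between 1.80 and 2.44.

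Over the 10 lanes the members did not vary as a block. Correlations of log2 normalized counts share the scaling factor of each lane, and 10 pairs were computed. Mapk14 and Map4k2 had r = 0.73 (permutation p = 0.0134, adjusted 0.0671) and rho = 0.84 (permutation p = 0.00352, adjusted 0.0352). With TMM scaling r was 0.63. Without the 2 lanes farthest from the median of Mapk14, control 52 and 69, r was 0.66. Both genes were divided by the same housekeeping signal, with which they had r of -0.73 and -0.66. How much of their relation comes from the shared scaling was not tested. Mapk14 and Mapkapk2 had r = -0.19 (permutation p = 0.576, adjusted 0.703) and rho = 0.12 (permutation p = 0.761, adjusted 0.839) over all lanes, but r = 0.88 without those 2 lanes. Mapk14 and Map4k4 had r = -0.71 (permutation p = 0.0694, adjusted 0.116) and rho = -0.26 (permutation p = 0.470, adjusted 0.672), and r was 0.29 without them. Mapk11 and Mapk14 had r = 0.79 (permutation p = 0.00462, adjusted 0.0462) and rho = 0.47 (permutation p = 0.180, adjusted 0.464), but r = 0.30 without control 52 and 69. Mapk11 was at background, so its values are largely the shared scaling factor, and this r cannot show that the 2 genes vary together. The relations of Mapk14 with Mapk11, Mapkapk2 and Map4k4 rest on those 2 lanes. The other 6 pairs had an adjusted permutation p of 0.0709 or more for r.

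Normalized counts also followed the housekeeping signal, by which they were divided. With it, r was -0.73 for Mapk14, -0.70 for Mapk11, -0.66 for Map4k2, 0.67 for Mapkapk2 and 0.75 for Map4k4 (5 relations, each with an adjusted permutation p of 0.0395). The rho values ran from -0.50 for Mapk11 to 0.71 for Mapkapk2, with adjusted permutation p from 0.130 to 0.561. The signal enters both sides of each relation, so none of these p-values tests whether a gene is independent of it. Without control 52 and 69, r was 0.56 for Mapk14, 0.04 for Mapk11 and -0.22 for Map4k2, so these 3 relations rest on those lanes. It was 0.73 for Mapkapk2 and 0.49 for Map4k4. The BDS lanes also had the higher signal on average. Over all lanes with group means removed, r was 0.46 for Mapkapk2 and 0.68 for Map4k4. In the same way it was -0.74 for Mapk14, -0.74 for Mapk11 and -0.72 for Map4k2. The values of Mapk11 are background divided by this same signal.

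The tested genes outside the set whose log2 normalized counts were most like those of a member over the 10 lanes were Casp1 (r = 0.96) and Lair1 (r = 0.96) for Mapk14, Cxcr6 (r = 0.93) and Ikzf1 (r = 0.91) for Mapkapk2, Stat6 (r = 0.90) and Cd1d1 (r = 0.86) for Map4k2, and Syk (r = 0.95) and Traf2 (r = 0.91) for Map4k4. They are the 2 highest of each member and a description of these lanes. Without control 52 and 69, r was 0.85 for both genes named with Mapk14, 0.97 for Cxcr6 with Mapkapk2 and 0.58 for Traf2 with Map4k4. For Mapk11 at background they were Ltbr and Fcer1g (r = 0.86 each).

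Of 29 further cascade kinases and regulators followed here, 1 was on the panel, Map4k1. Map4k1, a MAP4 kinase of blood cells, had 5 to 37 raw counts. It was above the limit in 2 of 10 lanes, BDS 17 and BDS 38, and was not tested.

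Of 18 genes followed here that act in signalling close to receptors, 12 were on the panel and all 12 were tested. Of these, 0 passed the adjusted p of 0.05, and 3 were higher and 0 lower at an unadjusted edgeR p under 0.05, where 19.4% of all genes tested were higher and 8.83% lower. The median log2 fold change was 0.26, where that of all 283 genes was 0.09. With TMM scaling the list stood at 0.14 and all genes at -0.04. When only the positive controls set the scale, the list stood at 1.32, under the 1.35 of all genes. The 2 of the list with the smallest p were Tbk1, a kinase of innate sensing, at 0.68 ± 0.19 (SE; edgeR adjusted p = 0.0642), and Irak4, the first kinase below Toll-like receptors, at 0.58 ± 0.20 (SE; edgeR adjusted p = 0.126). Of 14 transcription factors downstream of MAP kinases followed here, Cebpb and Stat3 were on the panel and were tested, and 0 passed the adjusted threshold or an unadjusted edgeR p under 0.05. Stat3, a factor activated by cytokine receptors, was at -0.24 ± 0.29 (SE; edgeR adjusted p = 0.592), a sign that turned to 0.02 without control 52. Cebpb, a factor of macrophage activation, was at -0.04 ± 0.44 (SE; edgeR adjusted p = 0.957), and at 0.59 without control 52, where it stood at 398 normalized counts. When only the positive controls set the scale, Stat3 was at 1.33 and Cebpb at 1.83, against 1.35 for the median of all genes.

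Cytokine and related transcripts whose stability or translation MK2 is known to regulate had 10 members on the panel and 4 above background, Tnf, Il1b, Ccl3 and Icam1. Of the 4, 0 passed the adjusted threshold and 0 were higher or lower at an unadjusted edgeR p under 0.05. Their median log2 fold change was -0.30, or -0.38 relative to that of all genes. When only the positive controls set the scale it was 0.87, against 1.35 for all genes. Ccl3, a macrophage chemokine, was at -0.76 ± 0.40 (SE; edgeR adjusted p = 0.213; 0.37 under that scaling), and Il1b, an inflammatory cytokine, at 0.47 ± 0.26 (SE; edgeR adjusted p = 0.244), with Il1b above the limit in 2 control and 5 BDS lanes.

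**Figure D5:**
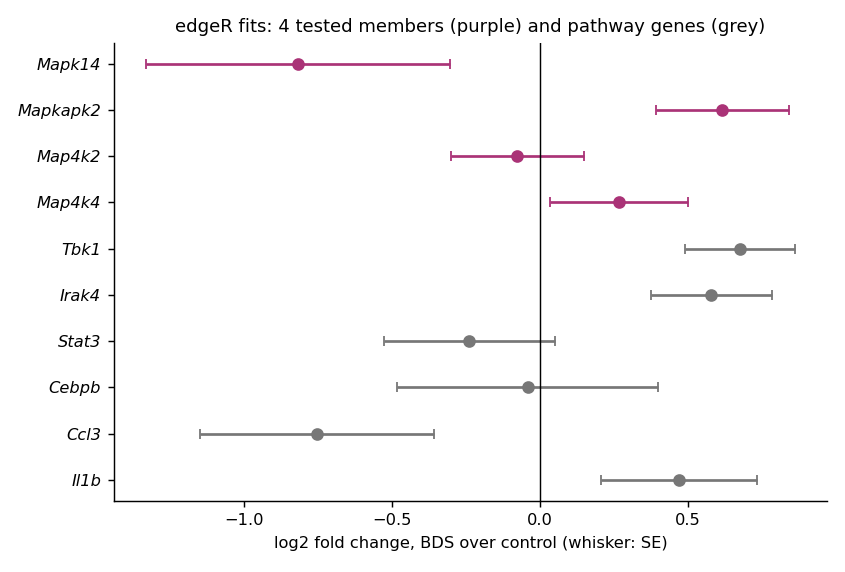
Log2 fold change of BDS over control (horizontal axis; whiskers are SE from edgeR, n = 5 pups per group) for the 4 tested members and the pathway genes named. Mapkapk2 lies at 0.61 and Mapk14 at -0.82 with the widest whisker, 0.51.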

How the data were processed

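The authors' first deposited table holds raw barcode counts per probe. Their second deposited table holds normalized scores, scaled to positive controls and 5 housekeeping genes per the series' design text, which names 6, and rounded. It also gives, per the file headers, group means, the percent of samples above background, a fold change as a ratio of means and an unadjusted p-value, copied here from the authors. The counting software is not given in the sources used here. Raw counts were scaled by the geometric mean of 6 housekeeping genes (Tbp, Sdha, Polr1b, Oaz1, Gapdh and Alas1) and fitted with edgeR 4.0.16 (quasi-likelihood, two-sided, no covariate, R 4.3.3), with Benjamini-Hochberg adjustment over 283 genes; SE was obtained by dividing the fold change (log2) by the root of edgeR's F. For normalized counts, raw counts were divided by the lane's housekeeping mean and rescaled. Correlations used log2(normalized count + 1) and 100000 permutations. DESeq2 1.42.0 and limma 3.58.1 were alternatives. The edgeR fit was also run on simulated counts, with the outcome not given here. Counts follow PCR without molecular identifiers. Probes differ in efficiency, so levels were not compared between genes. The accessions of all 5 members matched the same symbols in RefSeq (GRCm38.p6 table). The spread behind each p-value is that between pups. Members and gene lists were chosen with earlier results of these data known. Some genes of the lists are not reported here. Named were the members, every tested gene of the cascade list, the 2 genes with the smallest p of each other list, and the 2 genes most correlated with each member; Map4k1, Tnf and Icam1 were named after their values were seen.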

Additional observations from a re-analysis of the deposited data

Results flagged for a closer look

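Among 28 sets of 5 values looked at, a group of pups for 1 gene or ratio each, 2 held a pup far from the other 4, and chance would mark about 1 in 20 sets. Map4k4 in BDS 59 stood at 2468 normalized counts, where the other BDS lanes lay between 1945 and 2050. Cebpb in control 52 stood at 398 normalized counts, above the other control lanes.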

How the results depend on the processing

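No paired analysis was possible because the groups share no pup number. No tested member passed an adjusted p of 0.05 in any of the 28 alternative fits. The log2 fold change of Mapkapk2 kept its sign in all 28. That of Mapk14 turned to 1.29 with positive controls alone, 0.56 with lane depth as a covariate and 0.48 without control 52 and 69; leaving out 1 pup gave -1.05 to -0.01. Map4k2 turned to 1.35 with positive controls alone, 0.059 with all housekeeping genes, 0.034 without Polr1b, 0.0046 with background subtracted, 0.23 with lane depth and 0.18 without control 52 and 69, and leaving out 1 pup gave -0.19 to 0.051. Map4k4 turned to -0.011 with lane depth. Stat3 turned to 1.33 with positive controls alone, 0.21 with lane depth, 0.29 without control 52 and 69 and, with 1 pup left out, ran from -0.38 to 0.022 (without control 52), and Ccl3 to 0.37 with positive controls alone. Cebpb turned to 1.83 with positive controls alone, 0.23 with all housekeeping genes, 0.0017 without Gapdh, 0.095 without Polr1b, 0.030 without Tbp, 0.074 with background subtracted, 0.093 with limma, 0.76 with lane depth and 0.80 without control 52 and 69, and ran from -0.24 to 0.59 with 1 pup left out. The log2 ratio difference of Map4k2 to Map4k4 turned to 0.050 without control 52 and 69 and 0.23 with lane depth held, where that of Mapkapk2 to Mapk14 was -0.034; leaving out 1 pup gave 0.45 to 1.32 for the latter, whose adjusted exact permutation p was 0.0476 without control 40. Genes at an adjusted p under 0.05, 0 by edgeR, numbered 14 with positive controls alone, 12 without Gapdh, 15 without Polr1b, 10 among genes above the limit in all lanes, 25 with DESeq2 and 0 to 48 with 1 pup left out (48 without control 40, 19 without BDS 11). Genes at an unadjusted p under 0.05, 80 by edgeR, numbered 128 with positive controls alone, 139 with no filter, 36 with lane depth and 45 to 108 with 1 pup left out. Of the pathway genes, Tbk1 passed an adjusted p of 0.05 in 5 of 28 alternatives and Irak4 in 1. For these counts and turns the cause was not tested. The median log2 fold change of all genes was 0.09. It was 1.35 with positive controls alone, -0.09 without Sdha and -0.04 with TMM. Mapk11 was at background in 8 of 10 lanes. The lanes where it exceeded the limit, BDS 17 and BDS 38, had the highest housekeeping signals of the 10. The reason was not tested.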
